A study of Rattus norvegicus with 18 samples.

Results

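The immediate early and stress response genes described here were set by 8 Ensembl gene IDs with their chromosomes, of which 6, for Fos, Jun, Egr1, Atf3, Nr4a1 and Myc, were found on the stated chromosome among 30562 genes of the count table. Junb and Dusp1 were not analysed here. All 6 passed the filter on low counts and are among the 16593 genes tested.

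The RNA came from intestine of wild-type Sprague-Dawley rats, an outbred stock, in 3 groups of 6 libraries. Rats of the irradiated plus formula group received a single 10 Gy dose of X-rays and then Changbing Formula, a preparation whose content the labels do not give. Rats of the irradiated group received the same 10 Gy dose alone, and control rats received no treatment. The labels give no age, sex, intestinal segment, time after irradiation or delay at collection, and no gene symbols are paired with the other IDs, so the tissue was not checked against its markers.

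Immediate early genes are transcribed within minutes of a stimulus without new protein synthesis, mostly through kinase cascades that act on factors already bound at their promoters. Many encode transcription factors: Fos and Jun pair as the AP-1 dimer, Atf3 is a related leucine zipper factor induced by stress, Egr1 is a zinc finger factor, Nr4a1 is an orphan nuclear receptor and Myc drives growth and the cell cycle. In intestine Myc is a known target of Wnt signalling in crypts, and the early genes are also known to respond to injury and to the handling of tissue at collection.

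The promoter table from RefSeq (GRCr8) matched 2 of the 6 genes by symbol, Egr1 and Nr4a1. Both promoters are shown as the only matches. They hold elements through which early genes are known to respond to signals, and the levels of these genes are compared across libraries further on. Each sequence below covers the 250 bases before the start of the gene's listed transcript, on the forward strand. Capitals mark matches to the CArG box, the element bound by serum response factor, and to TGACG, the half-site of the cAMP response element, searched on both strands.
Egr1, chr18:26736828-26737077: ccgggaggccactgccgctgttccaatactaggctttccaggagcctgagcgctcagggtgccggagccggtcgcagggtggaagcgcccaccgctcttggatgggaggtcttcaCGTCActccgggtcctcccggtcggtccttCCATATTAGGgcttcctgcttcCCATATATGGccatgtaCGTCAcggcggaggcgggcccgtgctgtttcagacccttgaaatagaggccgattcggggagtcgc
Nr4a1, chr7:134259888-134260137: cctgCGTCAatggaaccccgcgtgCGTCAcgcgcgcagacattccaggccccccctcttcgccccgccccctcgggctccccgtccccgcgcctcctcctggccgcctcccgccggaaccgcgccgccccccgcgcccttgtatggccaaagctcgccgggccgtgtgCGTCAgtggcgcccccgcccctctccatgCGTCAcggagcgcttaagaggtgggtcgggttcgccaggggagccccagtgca
The Egr1 promoter held 2 CArG boxes, with first bases at -105 and -83 from the start, a motif found in 1.5% of 33469 promoters of the same length. It also held 2 TGACG half-sites, at -135 and -66. The Nr4a1 promoter held 4 half-sites, at -246, -226, -82 and -53, and 0 CArG boxes. Half-sites occurred in 18.2% of the promoters. Neither held the full element, TGACGTCA, which contains TGACG and was found in 1.59% of promoters. AP-1 sites, TGACTCA or TGAGTCA, were also searched. Neither promoter held one, and they were found in 4.05% of promoters. These matches describe letters in a window and not binding.

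Library totals lay between 33598572 and 48398184 counts. Control 2 and irradiated 4 stood apart from the other 16 libraries across the transcriptome, where the first principal component placed control 2 at 176, irradiated 4 at 216 and the rest between -52.9 and 34.2. They also had the lowest shares of mitochondrial counts, 9.30% in control 2 and 5.77% in irradiated 4, and the highest share was 39.7% in irradiated 5. Levels are CPM, counts scaled to a common library size with TMM factors, unless stated, and in whole tissue fewer cells of a type and less RNA per cell cannot be told apart.

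**Figure D1:**
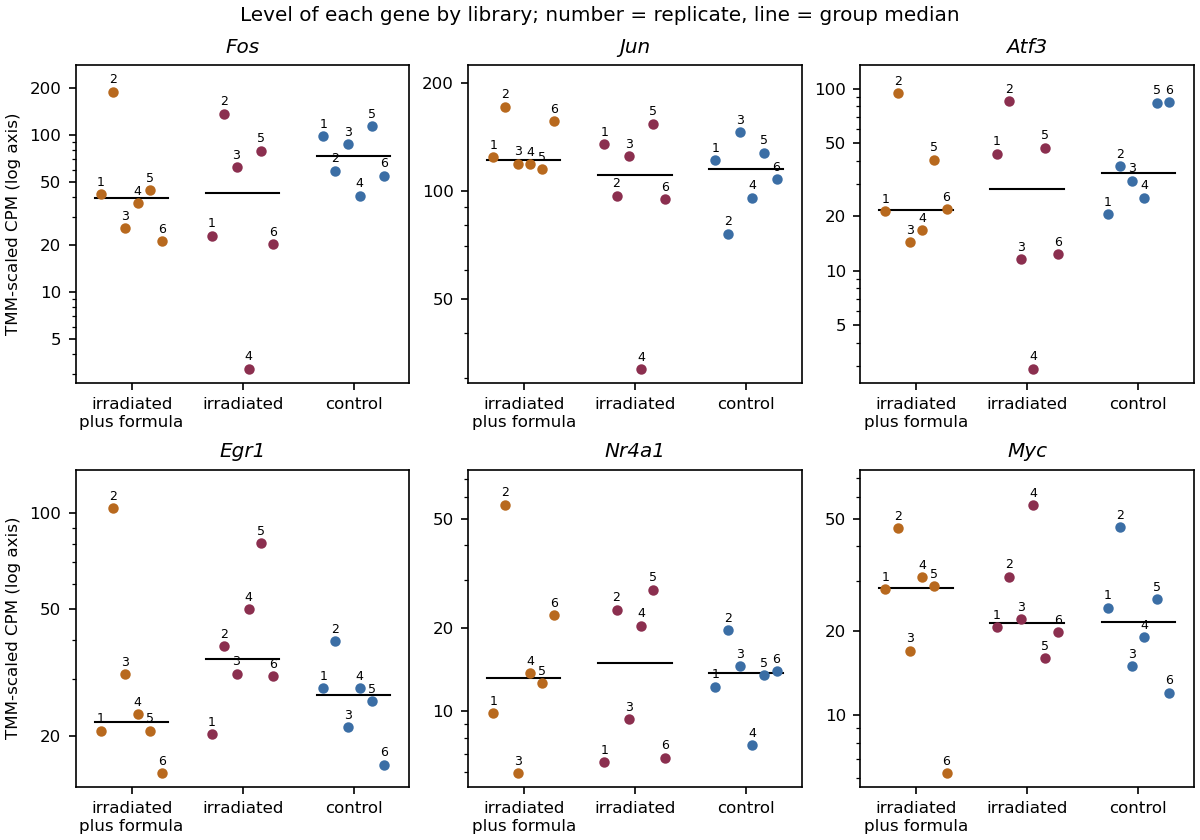
Level of the 6 genes in each of 18 libraries, in TMM-scaled CPM on log axes, with the replicate number at each point and the group median as a line. The groups overlap for every gene, irradiated plus formula 2 is the highest library of its group for all 6, and irradiated 4 is the lowest of its group for Fos, Jun and Atf3.

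Fos, the short-lived partner in AP-1, spanned the widest range of the 6 genes and did not differ detectably between groups. It lay between 21.04 and 189 CPM in irradiated plus formula libraries (median 39.3), between 3.25 and 136 CPM in irradiated libraries (median 42.7), and between 41.1 and 114 CPM in control libraries (median 73.1). The groups overlapped fully: the control libraries all lay inside the range of the irradiated libraries. The gene (ENSRNOG00000008015) lies at chr6:105121170-105124036 on the forward strand (mRatBN7.2), and the exons of all 6 genes overlapped those of 0 other annotated genes. From lowest to highest library the level differed 58.0-fold, from 178 counts in irradiated 4 to 6226 counts in irradiated plus formula 2. Per exon length, irradiated 2 was the highest library at 214 TPM, a level scaled by exon length, above the 186 TPM of irradiated plus formula 2.

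Fos averaged 54.0 ± 49.3 CPM after irradiation and 75.7 ± 28.3 CPM in controls (SD, n = 6 each), a log2 fold change of -0.49 (SE 0.66, 95% interval -1.88 to 0.91, edgeR quasi-likelihood test, adjusted p = 0.998). It was 59.7 ± 63.8 CPM in irradiated plus formula libraries, a log2 fold change of 0.14 against irradiated (edgeR adjusted p = 0.962) and of -0.34 against control (edgeR adjusted p = 0.943). The fold changes against control kept their sign but not their size. For irradiated against control the value was -0.24 without irradiated 4, -0.25 without control 2 and irradiated 4, and -1.01 without irradiated 2. Over all 30 alternatives this value lay between -1.05 and -0.04. For irradiated plus formula against control it was -1.16 when irradiated plus formula 2 was left out and -0.17 when irradiated plus formula 6 was. None of these passed the threshold. The sign against irradiated turned when any of 4 single libraries was left out. That fold change was -0.67 without irradiated plus formula 2, -0.11 without irradiated 4, -0.01 without irradiated 1 and -0.03 without irradiated 6. It was -0.92 without both irradiated plus formula 2 and irradiated 4, and none of these passed the threshold (edgeR adjusted p = 0.838 to 0.9999).

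Jun, the AP-1 partner that can also dimerise with itself, was the steadiest of the 6. It lay between 115 and 171 CPM in irradiated plus formula libraries (median 121), between 31.8 and 154 CPM in irradiated libraries (median 111), and between 75.9 and 146 CPM in control libraries (median 115). Apart from irradiated 4, all libraries held at least 75.9 CPM, and the next lowest was control 2. The gene (ENSRNOG00000026293) is annotated as 1 exon at chr5:109893145-109897656 on the reverse strand. The mean was 134 ± 23.8 CPM in irradiated plus formula, 106 ± 42.8 CPM in the irradiated group and 112 ± 24.8 CPM in controls (SD, n = 6 each). The log2 fold change was -0.08 for irradiated against control, with a 95% interval of -0.65 to 0.49, and its sign turned without irradiated 4 (0.11), control 3 (0.0050) or control 5 (0.02), and without control 2 and irradiated 4 (0.07).

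Jun stood 0.34 higher on the log2 scale in irradiated plus formula than in irradiated libraries (SE 0.27, edgeR adjusted p = 0.785) and 0.25 higher than in control (SE 0.27, edgeR adjusted p = 0.901). Both 95% intervals included 0. Against irradiated the value was 0.15 without irradiated 4 and 0.12 without control 2 and irradiated 4, and against control it was 0.16 without control 2. The 95% interval lay within 2-fold in either direction in all 3 comparisons for Jun, and in no comparison for Fos, Atf3, Egr1 or Nr4a1.

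The ratio of Fos to Jun transcripts differed between libraries, and its ranges in the 3 groups overlapped. Per exon length, the ratio of Fos to Jun in TPM lay between 0.38 and 3.13 in irradiated plus formula, between 0.29 and 3.995 in irradiated and between 1.22 and 2.53 in control libraries. Every control library therefore held more Fos than Jun by this measure. Irradiated 1, 4 and 6 and irradiated plus formula 1, 3, 4 and 6 held less Fos than Jun. The difference in these ratios between groups was not tested, since the ratio was examined after its values were seen.

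Atf3, a stress-induced repressor that pairs with Jun proteins, followed Fos in its wide spread. It lay between 14.3 and 94.3 CPM in irradiated plus formula libraries (median 21.5), between 2.88 and 85.6 CPM in irradiated libraries (median 28.1), and between 20.4 and 84.2 CPM in control libraries (median 34.3). High libraries were found in each group: irradiated plus formula 2, irradiated 2, and control 5 and 6, all above 80 CPM. The mean was 34.8 ± 30.6 CPM in irradiated plus formula, 34.0 ± 31.3 CPM in the irradiated group and 47.0 ± 29.2 CPM in controls (SD, n = 6 each).

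The Atf3 log2 fold change was -0.47 for irradiated against control (SE 0.66, edgeR adjusted p = 0.998) and -0.43 for irradiated plus formula against control (SE 0.66, edgeR adjusted p = 0.928). For irradiated against control it was -0.23 without irradiated 4, -0.996 without irradiated 2 and -0.17 without control 5. For irradiated plus formula against control it was -1.04 without irradiated plus formula 2 and -0.18 without control 5. Between irradiated plus formula and irradiated it was 0.04 (95% interval -1.35 to 1.43). Its sign turned with the scaling, to -0.06 when only library totals were used. It also turned when irradiated plus formula 2 was left out, to -0.57. The gene (ENSRNOG00000003745) lies at chr13:102751321-102764631 on the reverse strand.

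Egr1, whose promoter with its CArG boxes is shown above, had the largest fitted difference between irradiated and control libraries among the 6, without passing the test. It lay between 15.2 and 104 CPM in irradiated plus formula libraries (median 22.02), between 20.2 and 80.3 CPM in irradiated libraries (median 34.8), and between 16.2 and 39.6 CPM in control libraries (median 26.9). Irradiated 4 and 5 exceeded the highest control library, control 2, and the other irradiated libraries lay within the control range. The log2 fold change for irradiated against control was 0.66 (SE 0.43, 95% interval -0.25 to 1.57, edgeR adjusted p = 0.998), with means of 41.8 ± 21.3 CPM in the irradiated group and 26.5 ± 7.91 CPM in controls (SD, n = 6 each). It stayed positive, between 0.42 and 0.96, in all 30 alternatives, and the lowest adjusted p among them was 0.440, in edgeR without control 2. The SE there was 0.46, and an adjusted p also depends on the other genes tested. Other settings had a lower SE. The log2 fold change was 0.66 (SE 0.29) without irradiated plus formula 2 and 0.70 (SE 0.32) with only the 12 libraries compared. Neither passed the threshold (edgeR adjusted p = 0.999 in both).

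With the formula, mean Egr1 was 35.8 ± 33.7 CPM (SD, n = 6), of which irradiated plus formula 2 alone held 104 CPM and the other 5 libraries at most 31.1 CPM. The log2 fold change was -0.22 against irradiated (edgeR adjusted p = 0.897), or 0.02 without irradiated 5, and 0.43 against control (edgeR adjusted p = 0.896). Without irradiated plus formula 2 the log2 fold change was -0.91 against irradiated (SE 0.31, edgeR adjusted p = 0.836). Against control it was then -0.25 (SE 0.31, edgeR adjusted p = 0.886). The gene (ENSRNOG00000019422) lies at chr18:26462981-26466766 on the forward strand (mRatBN7.2).

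Nr4a1, a nuclear receptor without a known natural ligand that is induced by many early stimuli, was the lowest of the 6 per exon length. It lay between 5.94 and 56.3 CPM in irradiated plus formula libraries (median 13.2), between 6.50 and 27.6 CPM in irradiated libraries (median 14.9), and between 7.50 and 19.7 CPM in control libraries (median 13.8). The medians of the 3 groups were close, and irradiated plus formula 2 stood far above all other libraries. Its log2 fold change was 0.57 for irradiated plus formula against control (SE 0.49, edgeR adjusted p = 0.887), with means of 20.1 ± 18.5 CPM in the formula group and 13.6 ± 3.93 CPM in controls (SD, n = 6 each). Without irradiated plus formula 2 it was -0.08 (edgeR adjusted p = 0.972). The log2 fold change was 0.36 for irradiated plus formula against irradiated (edgeR adjusted p = 0.858), or -0.28 without irradiated plus formula 2, and 0.21 for irradiated against control (edgeR adjusted p = 0.998). The gene (ENSRNOG00000007607) lies at chr7:132374840-132389297 on the forward strand (mRatBN7.2).

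Myc, the growth regulator that is both an early gene and a marker of crypt proliferation, had nearly equal means in the 3 groups. It lay between 6.22 and 46.4 CPM in irradiated plus formula libraries (median 28.5), between 16.01 and 55.9 CPM in irradiated libraries (median 21.3), and between 12.0 and 46.6 CPM in control libraries (median 21.6). The highest libraries of the irradiated and control groups were irradiated 4 and control 2, the same libraries that held the lowest Jun of their groups in CPM (in TPM control 4 held less Jun than control 2). The mean was 26.3 ± 13.6 CPM in irradiated plus formula, 27.6 ± 14.8 CPM in the irradiated group and 23.8 ± 12.3 CPM in controls (SD, n = 6 each). The log2 fold change was 0.21 for irradiated against control (95% interval -0.67 to 1.10, edgeR adjusted p = 0.998), and -0.12 without irradiated 4. Against irradiated the formula group gave -0.07, and 0.26 without irradiated 4. Against control it gave 0.14, and -0.10 without irradiated plus formula 2. The gene (ENSRNOG00000004500) lies at chr7:93593705-93598630 on the forward strand.

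Counted together, 0 of the 6 genes passed the threshold in any comparison, at an adjusted p of 0.05 in edgeR's quasi-likelihood test. Among all 16593 genes that share was 0% for irradiated against control, 0% for irradiated plus formula against irradiated and 0.0121% for irradiated plus formula against control. At an unadjusted p below 0.05 there were also 0 of 6 in each comparison, where the share of all genes was 1.93% for irradiated against control, 5.59% for irradiated plus formula against irradiated and 5.71% for irradiated plus formula against control. The values of the groups were free of overlap for 0 of 6 genes in each comparison, where the share of all genes was 0.00603% for irradiated against control, 0.187% for irradiated plus formula against irradiated and 0.832% for irradiated plus formula against control. DESeq2 and limma-voom with quality weights called 0 of the 6 as well. In the same order of comparisons, the calls among all genes were 0, 8 and 47 in DESeq2. They were 0, 0 and 499 in limma-voom. With so few calls among all genes, 0 of 6 does not set these genes apart. The median log2 fold change of the 6 was 0.06 for irradiated against control, 0.09 for irradiated plus formula against irradiated and 0.20 for irradiated plus formula against control, while over all genes it was 0.01, -0.02 and -0.07 for these comparisons. The comparisons share libraries, so their values are not independent.

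**Figure D2:**
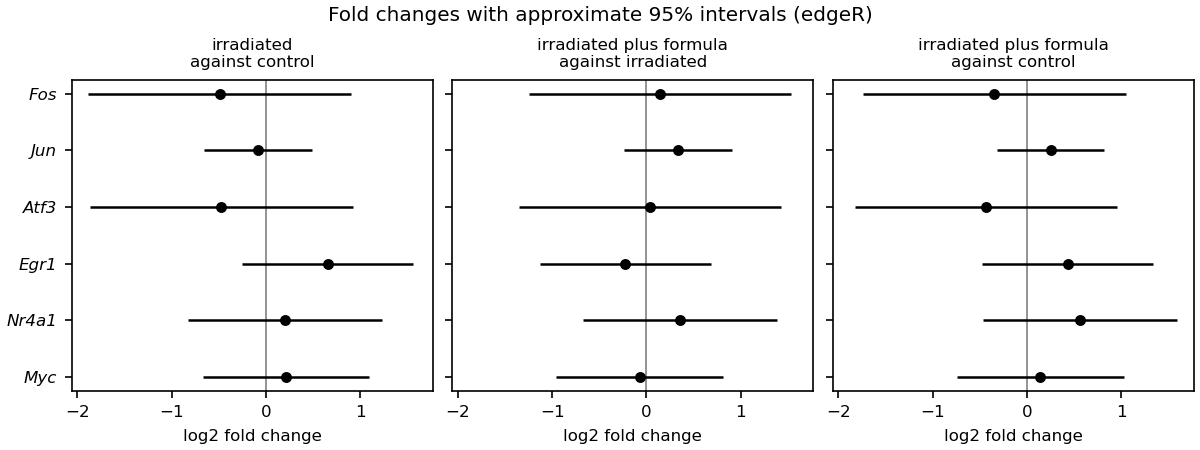
Fitted log2 fold changes of the 6 genes in the 3 comparisons, with approximate 95% intervals from edgeR. All 18 intervals include 0, and those of Fos and Atf3 are the widest.

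Fos and Atf3 varied widely among libraries of one group. The within-group SD on the log2 CPM scale was 1.32 for Fos and 1.29 for Atf3, higher than in 92.8% and 92.3% of the 9565 genes that averaged 10 CPM or more. It was 0.88 for Nr4a1, 0.80 for Myc, 0.73 for Egr1 and 0.53 for Jun, where the median of those genes was 0.43. For Fos the SD was 1.12 in irradiated plus formula, 1.92 in irradiated and 0.57 in control libraries, and for Egr1 it was 0.98 in irradiated plus formula, 0.68 in irradiated and 0.43 in control libraries. In the same order of groups it was 1.01, 1.79 and 0.87 for Atf3 and 1.11, 0.94 and 0.45 for Nr4a1. Control libraries did not have the lowest SD for Jun (0.24, 0.82 and 0.33) or Myc (1.01, 0.64 and 0.68). Whether the spread differs between groups was not tested.

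**Figure D3:**
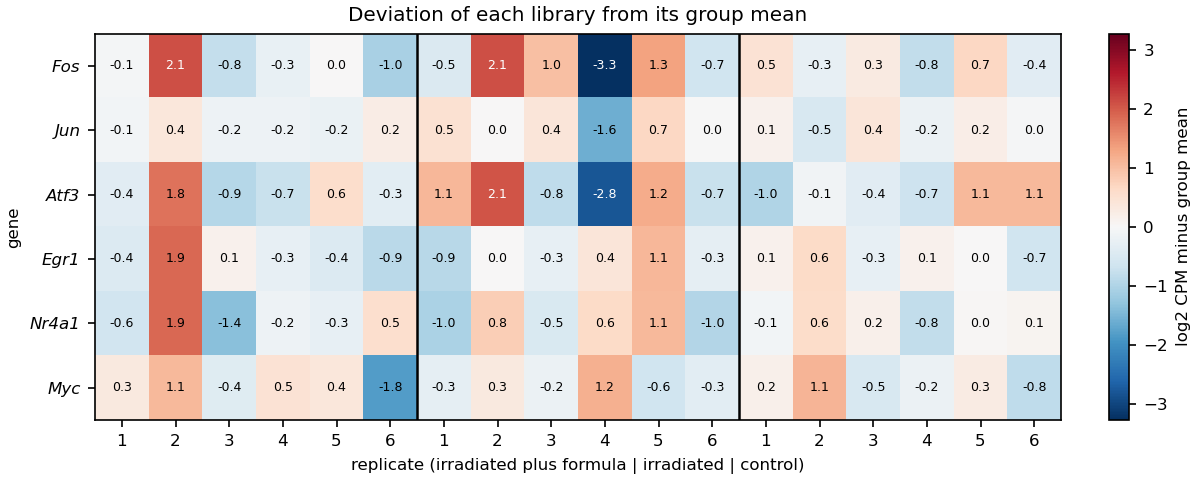
Deviation of each library from its group mean, in log2 CPM, for the 6 genes (rows) in irradiated plus formula, irradiated and control libraries (columns, left to right, by replicate number). Irradiated plus formula 2 deviates upward for every gene, and irradiated 4 deviates by -3.27 for Fos and -2.81 for Atf3 but by 1.15 for Myc.

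Several of the 6 genes were high or low in the same libraries. Irradiated plus formula 2 was the highest of its group for all 6 genes in CPM, with TMM factors or with library totals only, and for 5 of 6 in TPM, where irradiated plus formula 4 had more Jun. The TMM factor of irradiated plus formula 2 was 0.846, the lowest of its group. For what share of all genes this library was the highest of its group was not computed. Irradiated 2 was the highest of its group for Fos and Atf3 on all 3 scales. Irradiated 5 was the highest of its group for Jun, Egr1 and Nr4a1 in TMM-scaled CPM but for 0 of 6 genes in TPM, and its TMM factor was 0.780.

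Irradiated 4 split the set. It held the lowest Fos, Jun and Atf3 of its group on all 3 scales, and its Fos and Atf3 were the lowest of all 18 libraries. Its Myc was the highest of its group at 55.9 CPM, and its Egr1 of 50.0 CPM was the second highest in TMM-scaled CPM and the highest in TPM. The ratio of Fos to Egr1 in TPM was 0.127 in irradiated 4 and at least 1.29 in each of the other 17 libraries. The ratio of Myc to Jun was 3.40 in irradiated 4 and 1.18 in control 2, and at most 0.62 in the others. These 2 libraries also had the lowest mitochondrial shares, given above, and the part of what sets these libraries apart in the values of the 6 genes was not tested.

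Over all 18 libraries Atf3 and Jun had the highest correlations with Fos among the early genes, an order that did not hold without irradiated 4 and irradiated plus formula 2, where Nr4a1 was highest and Jun lowest. Across 18 libraries, after group means had been subtracted from log2 CPM, Fos and Atf3 had a Pearson r of 0.77 (permutation p = 0.00348, adjusted p = 0.0174 over 5 relations with Fos) and a Spearman rho of 0.49 (permutation p = 0.0711, adjusted p = 0.178). Fos and Jun had an r of 0.72 (permutation p = 0.0161, adjusted p = 0.0402) and a rho of 0.50 (permutation p = 0.0435, adjusted p = 0.178). Both were lower without the 2 libraries farthest from the median of Fos, irradiated 4 and irradiated plus formula 2. Without them r was 0.42 for Atf3 (permutation p = 0.241) and 0.157 for Jun (permutation p = 0.610). Leaving out the extremes of Fos also narrows its range, which can lower r, so the drop cannot show what the relations rest on.

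Within groups of 6, given without a test, r between Fos and Atf3 was 0.89 in irradiated plus formula, 0.83 in irradiated and 0.13 in control libraries. Between Fos and Jun it was 0.51 in irradiated plus formula, 0.79 in irradiated and 0.69 in control libraries.

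Egr1, Nr4a1 and Myc passed the threshold with Fos only when control 2 and irradiated 4 were left out, with or without irradiated 1. The r of Fos was 0.37 with Egr1 (permutation p = 0.176, adjusted p = 0.234), 0.38 with Nr4a1 (permutation p = 0.187, adjusted p = 0.234) and 0.05 with Myc (permutation p = 0.856, adjusted p = 0.856). Spearman rho was 0.28 with Egr1 (permutation adjusted p = 0.393), 0.43 with Nr4a1 (permutation adjusted p = 0.208) and 0.16 with Myc (permutation adjusted p = 0.559). Without the 2 libraries farthest from the median of Fos, r was 0.39 with Egr1, 0.58 with Nr4a1 and 0.36 with Myc (permutation p = 0.297, 0.0856 and 0.0781). Without control 2 and irradiated 4 these values were 0.71 with Egr1 (permutation adjusted p = 0.0416), 0.78 with Nr4a1 (permutation adjusted p = 0.0296) and 0.61 with Myc (permutation adjusted p = 0.0416), beside 0.60 with Atf3 (permutation adjusted p = 0.0416) and 0.36 with Jun (permutation adjusted p = 0.228). In the irradiated plus formula group alone r was 0.89 for Egr1, 0.73 for Nr4a1 and 0.77 for Myc, where irradiated plus formula 2 was the highest library for each. In the irradiated group alone r was 0.08 for Egr1, 0.19 for Nr4a1 and -0.61 for Myc. In the control group alone it was -0.04 for Egr1, 0.37 for Nr4a1 and 0.14 for Myc.

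Over all 15 pairs of the 6 genes, r was positive in 12 and had a median of 0.37. None of the 15 passed an adjusted p of 0.05 over all pairs by either measure (0 by Pearson and 0 by Spearman). Egr1 and Nr4a1 had an r of 0.64 (permutation p = 0.0247, adjusted p = 0.0926) and a rho of 0.49 (permutation p = 0.0688, adjusted p = 0.264), and r was 0.153 without irradiated plus formula 2 and irradiated 5. Jun and Myc had an r of -0.52 (permutation p = 0.0149, adjusted p = 0.0804) and a rho of -0.56 (permutation p = 0.0154, adjusted p = 0.230). Without irradiated 4 and irradiated 5, the libraries farthest from the median of Jun, that r was -0.32. It was -0.17 without control 2 and irradiated 4 (permutation p = 0.569) and -0.60 without irradiated 4 and irradiated plus formula 2 (permutation p = 0.00968). Within groups it was -0.14 in irradiated plus formula, -0.93 in irradiated and -0.57 in control libraries.

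**Figure D4:**
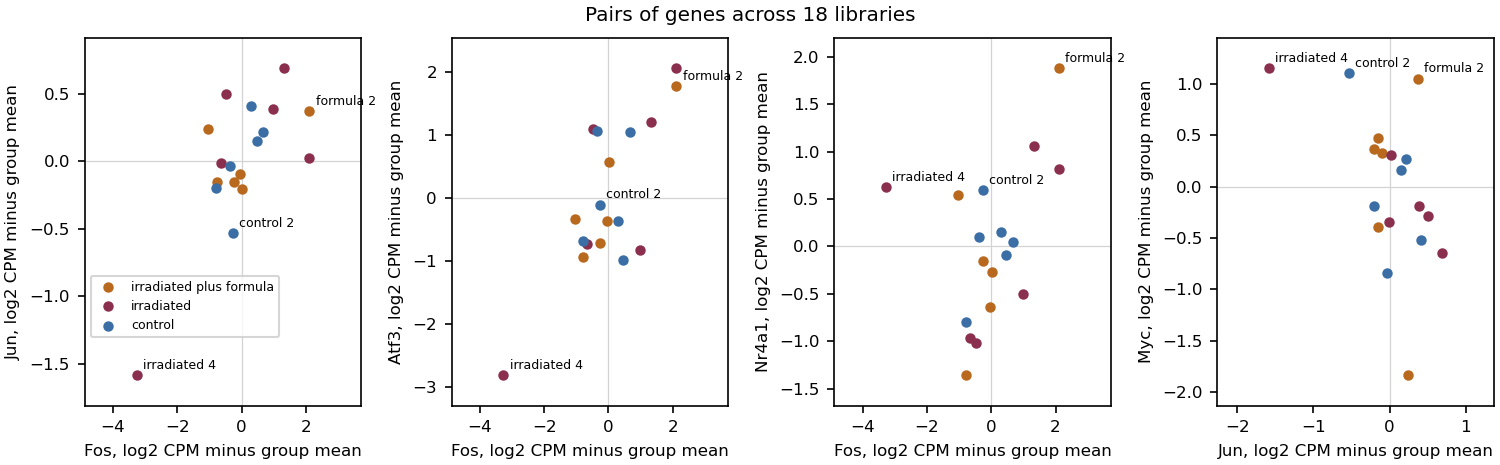
Deviations from the group mean in log2 CPM for Fos against Jun, Atf3 and Nr4a1 and for Jun against Myc, 1 point per library (18), coloured by group, with 3 libraries named. Irradiated 4 sits at the low end of Fos in the first 3 panels and at the high end of Myc in the last.

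As a description across genes, which are not independent replicates, Fos was set against the 14318 genes that averaged 1 CPM or more. Its r over the 18 libraries had a median of 0.02 and exceeded 0.7 for 179 genes. Atf3 ranked 37 and Jun ranked 111 among them, while Nr4a1 ranked 3082, Egr1 3272 and Myc 6805. The gene most like Fos was ENSRNOG00000017473, at chr10:85480094-85508603 on the forward strand, with an r of 0.87, and the next was ENSRNOG00000069024, at chr10:16681808-16683120 on the forward strand, with an r of 0.86. ENSRNOG00000017473 averaged 1.77 CPM, near the limit of 1 CPM, and lay between 0.35 CPM in irradiated 4 and 4.57 CPM in irradiated plus formula 2. Levels of ENSRNOG00000069024 lay between 13.2 CPM in irradiated 4 and 111 CPM in irradiated plus formula 2. These are the same low and high libraries as for Fos, and its r with Atf3 and Jun was lower without them. No symbol is paired with these IDs in the files used, whether either stands for one of the 8 listed genes under another ID was not checked, and all of these values share the 18 libraries and their scaling.

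Per exon length, the median levels over 18 libraries were 56.8 TPM for Fos, 52.0 TPM for Jun, 26.7 TPM for Atf3, 20.3 TPM for Myc, 16.5 TPM for Egr1 and 9.49 TPM for Nr4a1. The range of Jun, from 19.5 to 61.1 TPM, lay inside that of Fos, from 5.67 to 214 TPM, so their order is not separated beyond the spread. The neighbours Atf3, Myc and Egr1 likewise overlapped, with 4.22 to 113 TPM, 4.44 to 66.2 TPM and 8.15 to 52.2 TPM.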

How the data were processed

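Rat intestinal RNA was sequenced in 18 poly(A)-selected libraries, per the labels' protocols. The authors deposited raw counts per gene, made with featureCounts 2.1.1 on mRatBN7.2 with Ensembl release 110, per the file headers. The submitters' processing notes also list fastp and STAR; their settings are not given in the sources used here. Paired input was declared without the option to count fragments or a strand setting, per the file headers, and 66.9% to 74.6% of counts below 40 were even, so each fragment may count more than once. 0 columns of per-sample values were unused. Groups came from the titles; the free-text descriptions call all rats untreated.

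Counts were tested in R 4.3.3 with edgeR 4.0.16 (filterByExpr, TMM, quasi-likelihood, 1 model of 18 libraries, Benjamini-Hochberg over 16593 genes, threshold 0.05). Standard errors are the absolute log2 fold change over the square root of F, so intervals are approximate. Correlations used log2 CPM (prior count 2) centred on group means and 100000 permutations within groups. TPM used the deposited exon lengths. The procedure was tested on simulated data. Alternatives were other scalings and filters, DESeq2 1.42.0, limma-voom (limma 3.58.1), 12-library fits, a replicate term and left-out libraries. The lowest median chi-square over 153 library pairs was 6.36, so no pair agreed within sampling noise. P-values measure the spread between these samples; no label says that each came from its own rat.

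Members and lists were chosen with earlier results of these data known. The 6 measured members are named throughout, with the genes most like Fos. The RefSeq table (GRCr8) placed all 6 symbols on the listed chromosome but matched 0 of the IDs, so the pathway lists and cell type markers were not run and other genes carry only their ID.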

Additional observations from a re-analysis of the deposited data

Results flagged for a closer look

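Of 18 checks of a gene in a group of 6 libraries, on log2 CPM, 3 found a library whose gap to its nearest neighbour exceeded the share of the group's range that Dixon's 95% limit for groups of 6 allows, where chance gives about 0.9. The gap was 0.661 of the range for Fos in irradiated plus formula 2, at 189 CPM where the other 5 libraries lay between 21.04 and 44.3 CPM. It was 0.627 for Egr1 in the same library, at 104 CPM where the other 5 lay between 15.2 and 31.1 CPM, just past the limit. It was 0.693 for Jun in irradiated 4, at 31.8 CPM where the other 5 lay between 94.7 and 154 CPM. The genes share libraries, so the checks are not independent.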

How the results depend on the processing

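Settings that leave out irradiated 4 and irradiated plus formula 2 together were chosen after seeing the data. Of 18 fold changes of the members, 0 passed the threshold in any of 30 alternatives, and the lowest adjusted p was 0.201 (Fos, irradiated plus formula against control, limma-voom with quality weights). That log2 fold change was -0.89 (SE 0.40). The sign held in 493 of 540 alternatives and turned in 47; the cause was not tested. For 7 of the 18 it never turned: Fos and Atf3 in both comparisons with control, Egr1 for irradiated against control, and Jun for the formula group against either other group.

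For irradiated plus formula against irradiated, Atf3 was -0.0028 with DESeq2 size factors, -0.063 with library totals, -0.0093 without mitochondrial genes and -0.0028 in DESeq2. With limma-voom Fos was -0.11 and Myc 0.15 in that comparison; with control as the baseline Nr4a1 was -0.12 after irradiation alone and -0.050 after irradiation with formula. Without control 2 and irradiated 4, Jun was 0.073 for irradiated against control. Between the irradiated groups with and without formula Fos was -0.13, Atf3 -0.24 and Myc 0.24. With irradiated 1 also left out, these were 0.016 for Jun, -0.34 for Fos, -0.19 for Atf3 and 0.23 for Myc. Without irradiated 4 and irradiated plus formula 2, irradiated against control gave 0.11 for Jun and -0.12 for Myc. Irradiated plus formula against irradiated then gave -0.92 for Fos, -0.81 for Atf3, -0.19 for Nr4a1 and 0.021 for Myc, and irradiated plus formula against control -0.26 for Egr1, -0.076 for Nr4a1 and -0.10 for Myc.

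With 1 library left out in turn, irradiated against control ranged from -0.17 to 0.11 for Jun and from -0.12 to 0.52 for Myc. Irradiated plus formula against irradiated ranged from -0.67 to 0.67 for Fos, -0.57 to 0.56 for Atf3, -0.91 to 0.018 for Egr1, -0.28 to 0.55 for Nr4a1 and -0.31 to 0.26 for Myc. Irradiated plus formula against control ranged from -0.25 to 0.59 for Egr1, -0.075 to 0.76 for Nr4a1 and -0.10 to 0.45 for Myc. Without a change of sign, Fos ranged from -1.01 to -0.24 and Atf3 from -0.996 to -0.17 for irradiated against control, and Fos from -1.16 to -0.17 and Atf3 from -1.04 to -0.18 for irradiated plus formula against control.

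Over all genes, irradiated against control gave 0 calls in every alternative and irradiated plus formula against irradiated gave 0 except in DESeq2, with 8. Irradiated plus formula against control gave 2, and 3 with library totals, 47 in DESeq2, 499 with limma-voom, 6 with the 12 libraries compared, 7 without control 2 and irradiated 4, 7 with irradiated 1 also left out, 4 without irradiated 4 and irradiated plus formula 2, and 2 to 5 with 1 library left out (5 without control 2 or irradiated 4, 4 without irradiated 1). The replicate block gave 1 call and turned the sign of 0 members, with irradiated against control at -1.05 for Fos and -0.97 for Atf3. Of 18 same-numbered pairs, 5 had a correlation of deviations over 0.1 (-0.51 to 0.61) and for 4 of 18 libraries the best match was a library of the same number, so the numbers were not taken to pair the rats.

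The correlation of Fos with Jun lost its call without control 2 and irradiated 4 (0.358), with irradiated 1 also left out (0.472), and without the 2 libraries farthest from the median of Fos (0.157), where that with Atf3 also did (0.421). Calls appeared for Egr1, Nr4a1 and Myc without control 2 and irradiated 4 (0.713, 0.778 and 0.611) and with irradiated 1 also left out (0.675, 0.752 and 0.643). The biological coefficient of variation was 60.8%.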
